A study of Mus musculus with 33 samples.

Results

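The 9 genes described here are those of serine synthesis and of the ATF4 stress response that were chosen by symbol from the 21671 genes of the expression table: Phgdh, Psat1, Psph, Asns, Atf4, Atf5, Ddit3, Trib3 and Chac1. All 9 were found and all 9 passed the filter on low values in both sets of libraries. In the second set, described below, Phgdh, Psat1 and Asns passed it only through the tumours, where they were high. The study put MYC and an active β-catenin into C57BL/6 mouse liver, singly and jointly, and sequenced its RNA. In the first set, mice of 6 to 8 weeks received AAV8-TBG-CRE, a virus that delivers Cre recombinase under the hepatocyte promoter of thyroxine-binding globulin, and livers were taken 4 days later. This set holds 5 wild-type livers (WT), 5 livers of the genotype beta-cat Ex3 (Ex3), 5 of R26-lslMYC (MYC) and 5 of R26-lslMYC/beta-cat Ex3 (MYC+Ex3). The R26-lslMYC allele gives MYC once Cre removes a stop cassette, and beta-cat Ex3 is known as an allele that loses exon 3 of the β-catenin gene, which leaves a stable protein. The WT livers received the same virus, so virus and Cre are shared by all 20. The second set holds 3 liver noduli of Albeta-CreERT2/R26-lslMYC mice (MYC tumours), 3 of Albeta-CreERT2/R26-lslMYC/beta-catEx3 mice (MYC+Ex3 tumours) and 7 WT livers taken 4 days after intraperitoneal 4-OHT (4-hydroxytamoxifen), which switches on CreERT2. The labels give neither an age nor a treatment for the tumour mice and no Cre allele for the 4-OHT livers, so genotype, treatment and tissue state cannot be told apart in comparisons between tumours and 4-OHT livers.

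Serine is made from the glycolytic intermediate 3-phosphoglycerate in a short chain of reactions. PHGDH oxidises it, PSAT1 transfers an amino group from glutamate, and PSPH removes the phosphate. Serine then feeds glycine, folate one-carbon units for nucleotides, and glutathione. ATF4 is a transcription factor whose translation rises when eIF2α is phosphorylated in amino acid shortage or endoplasmic reticulum stress, so its messenger level need not follow its protein. ATF4 is known to switch on genes of amino acid supply, among them the serine genes and asparagine synthetase (Asns), together with Atf5, Ddit3 (the stress factor CHOP), Trib3 (a pseudokinase that restrains ATF4) and Chac1 (which breaks down glutathione). Hepatocytes are also known to break serine down, through serine dehydratase among other enzymes.

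The authors deposited RPKM, which is the reads of a gene scaled to its length in kilobases and to the library's total reads. The whole reads behind these values, recovered from their steps, came to 3.75 to 7.31 M (megareads) per day 4 library and 6.65 to 9.82 M per library of the tumour set. The highest RPKM of any gene lay between 220 and 396 in the day 4 libraries and between 42.9 and 67.5 in the tumour set, so levels are compared within a set only. Axin2, a target of β-catenin, was 2.73 to 4.30 RPKM in WT livers and 10.6 to 24.9 in Ex3 livers, with no overlap. The mouse Myc row, 0.748 to 4.11 RPKM in WT and 3.12 to 4.81 in MYC livers, does not check the transgene, whose sequence is not given in the sources used here. Hepatocyte markers had no member at 0 in any group, and their summed level was 1696 to 2952 RPKM in the day 4 livers and 300.1 to 529 in the tumour set. Skin keratin reads (Krt5, Krt14 and Krt17 together) were 3.95 to 23.8 RPKM in 10 of the 20 day 4 livers, namely 3 WT, 3 Ex3, 1 MYC and 3 MYC+Ex3, and at most 0.398 in the other 10. Sex is not in the labels. By whether Ddx3y (Y-linked) or Xist was higher, the 5 livers of each day 4 group held 2 (WT), 3 (Ex3), 3 (MYC) and 4 (MYC+Ex3) males. The 7 4-OHT livers held 4 males, and all but 1 tumour, of the MYC+Ex3 genotype, were male. The library MYC liver 5 held both, with 86.1 RPKM of Xist and 4.74 of Ddx3y.

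Changes are differences of log2(RPKM + 1) with their standard error, tested in limma over all genes of a set, 13688 at day 4 and 11854 in the tumour set. A gene is said to rise or fall where the Benjamini-Hochberg adjusted p was under 0.05. Each library carries its own animal number in the labels.

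The 3 enzymes of serine synthesis were low in control liver and rose together 4 days after MYC was switched on. The 3 genes were called higher in MYC livers against WT, where 16.9% of all genes were, and 3 again in MYC+Ex3 livers, where 17.9% were. With the β-catenin allele alone 0 of them were called, where only 0.132% of all genes were. The promoters of the 3 enzymes are shown because these genes moved together. Each line gives bases -100 to -1 before the RefSeq transcription start (build GRCm38.p6, written 5′ to 3′ on the gene's strand), with CCAAT, or ATTGG where it lies on the opposite strand, in capitals.
Phgdh: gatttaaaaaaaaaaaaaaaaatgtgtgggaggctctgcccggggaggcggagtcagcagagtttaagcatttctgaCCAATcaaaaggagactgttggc
Psat1: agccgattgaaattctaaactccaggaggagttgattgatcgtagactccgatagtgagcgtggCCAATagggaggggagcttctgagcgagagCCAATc
Psph: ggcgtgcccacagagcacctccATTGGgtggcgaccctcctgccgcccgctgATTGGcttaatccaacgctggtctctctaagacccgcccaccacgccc

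These lie at chr3:98339970-98340069, chr19:15925060-15925159 and chr5:129787254-129787353, all 3 on the minus strand. Psat1 has 2 windows in the table and the upstream one is shown. CCAAT on either strand was found in 37.4% of all 32851 promoter windows of 300 bases, and in 7 of the 11 windows of the members. These 7 windows belonged to Phgdh, Psat1, Psph, Atf4, Atf5, Ddit3 and Chac1, so CCAAT was not particular to the serine enzymes. CACGTG, the E-box bound by MYC with MAX, was found in 7.15% of all windows and in 0 of the 11. The ATF4 and C/EBP composite element TGATGNAAN, searched on both strands, was found in 3.95% of all windows and in 3 of the 11, none of them a window of a serine enzyme. CCAAT was added after the windows had been read, and a match or its lack describes these letters in this window only.

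Phgdh, the first and committed enzyme, was at 0.480, 0.769, 1.22, 1.59 and 1.59 RPKM in WT livers, on 4 to 18 reads per library. In MYC livers it was at 2.29, 7.30, 13.1, 17.2 and 25.2 RPKM. The groups did not overlap, and the MYC livers were spread far more widely than the WT livers. The log2 change was 2.44 ± 0.50 (SE; limma adjusted p = 0.0013). In bulk tissue a change in the number of cells that use a gene and a change in its RNA per cell cannot be told apart.

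Psat1, the aminotransferase, was at 0.580, 1.58, 1.64, 1.94 and 3.34 RPKM in WT livers and at 9.83, 10.2, 11.3, 22.6 and 44.1 RPKM in MYC livers. Every MYC liver lay above every WT liver. Its log2 change was 2.70 ± 0.37 (limma adjusted p = 2.78e-05). Psph, the phosphatase, stood higher in WT livers than the other enzymes, at 3.65, 6.53, 7.72, 8.03 and 8.58 RPKM. It was at 8.75, 10.7, 15.1, 15.3 and 22.8 RPKM in MYC livers, so that the lowest MYC liver lay just above the highest WT liver. The log2 change of Psph was 0.95 ± 0.26 (limma adjusted p = 0.011).

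Across all genes 22.3% were called in MYC against WT, 16.9% as higher and 5.36% as lower. Of the 9 members 3 were called higher and 0 lower, and the 3 are the serine enzymes. The same 3 were those whose groups did not overlap, where 10.9% of all genes had every MYC liver above and 2.4% every MYC liver below every WT liver. Within the 10 livers without keratin reads (2 WT and 4 MYC livers among them) the change of Psat1 was 2.39 ± 0.31 (limma adjusted p = 0.00155), that of Phgdh was 1.82 ± 0.55 (adjusted p = 0.0692) and that of Psph was 0.53 ± 0.24 (adjusted p = 0.213), so 1 of the 3 calls held there. MYC against WT was not fitted within the keratin libraries, which hold 1 MYC liver. With a term for keratin in the fit of all day 4 livers, Phgdh, Psat1 and Psph kept their calls. Among males only, Phgdh kept its size but not its call (2.44, limma adjusted p = 0.0632).

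**Figure D1:**
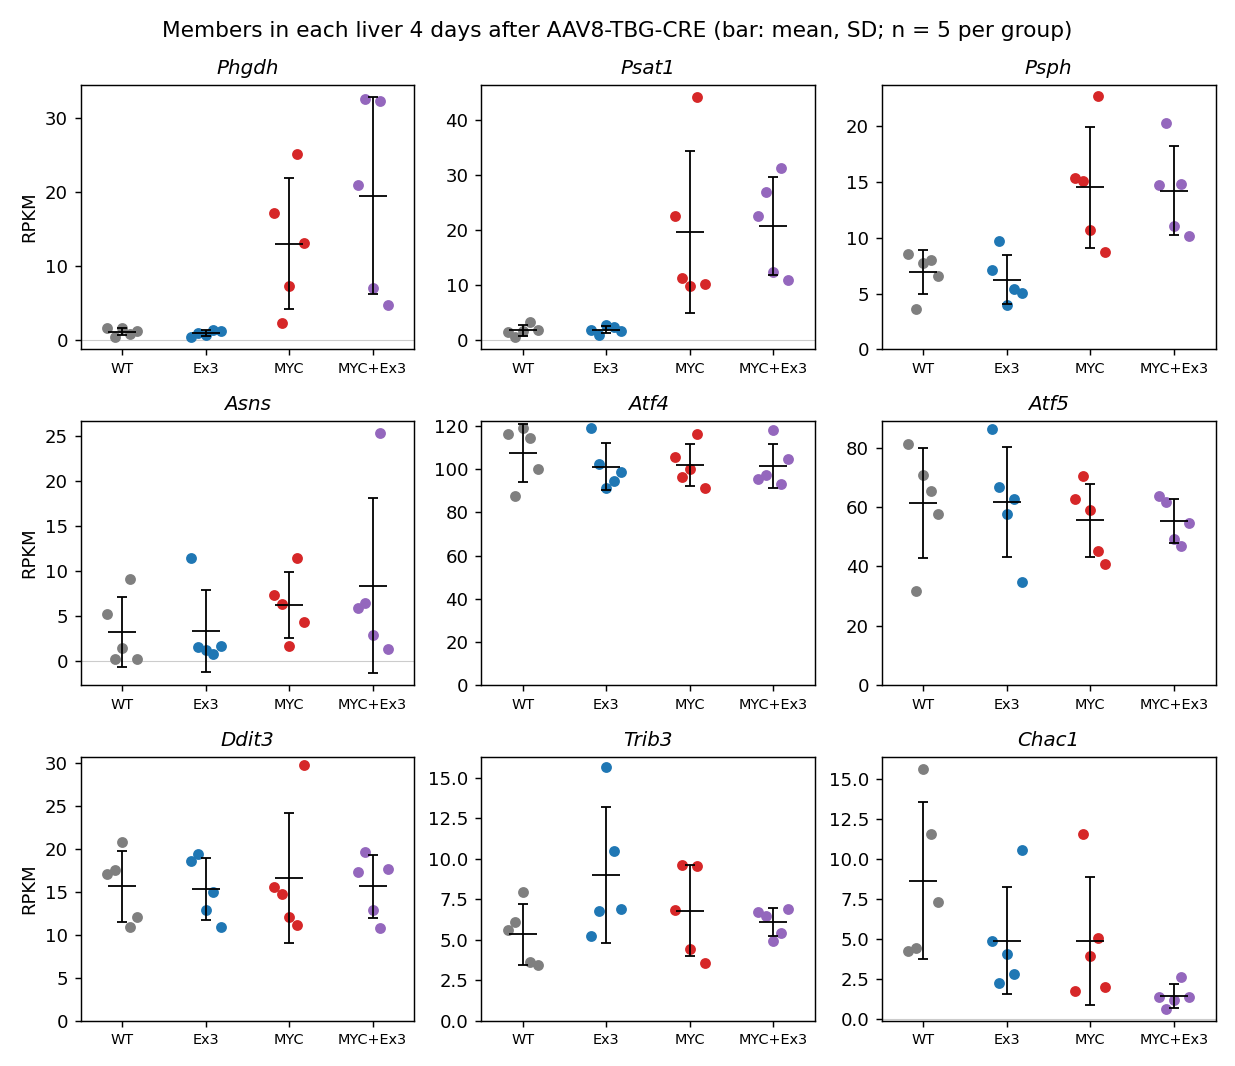
RPKM (linear axes) of the 9 genes in each liver 4 days after AAV8-TBG-CRE, by group, n = 5 per group; points are livers, horizontal lines the mean and bars the SD. Phgdh, Psat1 and Psph lie above all WT livers in MYC and MYC+Ex3 livers, as do 10.9% and 13.5% of all genes. The lowest MYC liver of Psph (8.75) lies below the highest Ex3 liver (9.68). Atf4, Atf5 and Ddit3 overlap in all 4 groups, and Chac1 is lowest in MYC+Ex3 livers.

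The livers with both alleles held serine enzyme levels of the same order as those with MYC alone. Phgdh was at 4.77, 6.98, 21.0, 32.3 and 32.6 RPKM in MYC+Ex3 livers, all above the WT livers. Its log2 change against WT was 2.97 ± 0.50 (limma adjusted p = 0.000165). Psat1 was at 11.0, 12.4, 22.5, 26.8 and 31.2 RPKM and changed by 2.92 ± 0.37 (limma adjusted p = 8.56e-06). Psph was at 10.1, 11.1, 14.7, 14.8 and 20.3 RPKM and changed by 0.95 ± 0.26 (limma adjusted p = 0.0101). Here 24.1% of all genes were called, 17.9% as higher and 6.18% as lower, and of the members 3 were higher and 1, Chac1, was lower. For all 3 serine enzymes every MYC+Ex3 liver lay above every WT liver, as for 13.5% of all genes. Every MYC+Ex3 liver also lay above every Ex3 liver for them, as for 15.2% of all genes. The change of each serine enzyme was also called against Ex3 livers, at 3.09 ± 0.50 for Phgdh, 2.81 ± 0.37 for Psat1 and 1.08 ± 0.26 for Psph (limma adjusted p from 2.59e-05 to 0.00438). In that comparison 21.1% of all genes were called, 16.4% as higher and 4.7% as lower, 3 members were higher and 1 lower, and the comparisons with WT and with Ex3 share the MYC+Ex3 livers. All 3 enzymes kept their calls against WT and against Ex3 within the keratin-free and within the keratin libraries, and among males only Psph lost its call against WT (0.77, limma adjusted p = 0.0799).

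With the β-catenin allele alone none of the serine enzymes was called, and Ex3 and WT livers overlapped in all 3. The lowest Phgdh value (0.397 RPKM) and the highest Psph value (9.68 RPKM) of the 2 groups were in Ex3 livers. In Ex3 livers Phgdh was at 0.397, 0.722, 0.972, 1.26 and 1.33 RPKM, overlapping WT, and its log2 difference was -0.13 ± 0.50 (limma adjusted p = 1). Psat1 differed by 0.11 ± 0.37 and Psph by -0.13 ± 0.26. None of the 9 members was called in Ex3 against WT, where 0.132% of all genes were, and none had groups apart, where 1.03% of all genes lay apart as higher and 0.563% as lower. At an unadjusted limma p under 0.05 the count was 1, Trib3, at 0.62 ± 0.27 (limma adjusted p = 0.895). Between MYC+Ex3 and MYC livers limma called 0 members against 0.19% of all genes, and 1, Chac1, had an unadjusted p under 0.05. Phgdh differed by 0.53 ± 0.50, Psat1 by 0.22 ± 0.37 and Psph by 0.00 ± 0.26 between them. The interaction term, which asks whether the effect of MYC changes with the β-catenin allele, was called for 0 members and for 0% of all genes, and 0 members had an unadjusted limma p under 0.05. For the serine enzymes it lay between 0.10 ± 0.52 (Psat1) and 0.65 ± 0.70 (Phgdh), standard errors too wide to detect a change of that size with 5 livers per group.

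Within groups the serine enzymes were correlated, and some pairs with other members exceeded all serine pairs but Phgdh with Psat1. With group means removed, Phgdh and Psat1 had a Pearson r of 0.70 over the 20 day 4 livers. Psat1 and Psph had 0.57, and Phgdh and Psph 0.44. With the keratin classes removed as well, these were 0.59, 0.66 and 0.27, and Psat1 with Asns had 0.78. With group means alone removed, Psat1 with Asns had 0.60, Psph with Asns 0.59, Psph with Atf5 0.54 and Psph with Atf4 0.52. The livers share library depth and sex and keratin differences, so these are descriptions. The 3 tested genes with the highest r to Phgdh, leaving out predicted genes, were Zik1 (0.89), Nfatc2ip (0.88) and Cdc7 (0.88). The same measure gave Cib3 (0.87), Slc10a2 (0.83) and Tff3 (0.81) for Asns, and Cisd3 (0.80), Mipep (0.78) and Cdkn3 (0.77) for Trib3. These r were picked as the highest over all tested genes, and such picking alone gives high values.

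Asns makes asparagine from aspartate with glutamine as the nitrogen donor and is a textbook ATF4 target. It carried the only TGATGNAAN match in the members' windows that lies shortly before the start, and bases -80 to -1 (chr6:7693210-7693289, minus strand, GRCm38.p6, RefSeq) are shown for that reason with the match in capitals.
Asns: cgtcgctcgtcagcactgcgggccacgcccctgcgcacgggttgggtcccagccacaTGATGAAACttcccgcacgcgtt

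Asns was the most uneven member at day 4, and no comparison between the 4 groups called it in the unweighted fit. With sample quality weights it was called in MYC+Ex3 against Ex3 livers, at 1.30 ± 0.51 (limma adjusted p = 0.0419). It was at 0.233, 0.237, 1.45, 5.30 and 9.18 RPKM in WT livers, the lowest 2 resting on 2 reads each. Ex3 livers were at 0.859, 1.29, 1.63, 1.72 and 11.5 RPKM. MYC livers were at 1.65, 4.42, 6.41, 7.40 and 11.4 RPKM. MYC+Ex3 livers were at 1.401, 2.91, 5.92, 6.45 and 25.3 RPKM. All 4 groups overlapped. The log2 difference from WT was 1.11 ± 0.67 for MYC (limma adjusted p = 0.253). For both alleles it was 1.15 ± 0.67 (limma adjusted p = 0.226).

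The spread of Asns went with sex as read from Xist and Ddx3y, a comparison added after the values were seen. In each of the 4 groups every male lay above every female. WT males were at 5.30 and 9.18 RPKM and WT females at 0.233, 0.237 and 1.45. In Ex3 livers the highest female was at 1.29 RPKM and the lowest male at 1.63, with 1 male at 11.5. In the fit with sex as a term, males stood 1.63 ± 0.35 above females on the log2 scale (12 males and 8 females; limma adjusted p = 0.0127), where 3.09% of all genes were called. Without MYC liver 5 the difference was 1.77 ± 0.37 (limma adjusted p = 0.0122), and with a term for keratin it was 1.63 ± 0.37 (adjusted p = 0.018). Psph was also called, at 0.58 ± 0.15 (limma adjusted p = 0.033), but not without MYC liver 5 (adjusted p = 0.0815). The other 7 members were not called. Once sex was in the fit the difference of Asns between MYC and WT was 0.78 ± 0.47 (limma adjusted p = 0.263), and Phgdh, Psat1 and Psph kept their calls. In the tumour set Asns differed by 0.20 ± 0.19 between 9 male and 4 female libraries (limma adjusted p = 0.995), where 0.0506% of all genes were called.

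**Figure D2:**
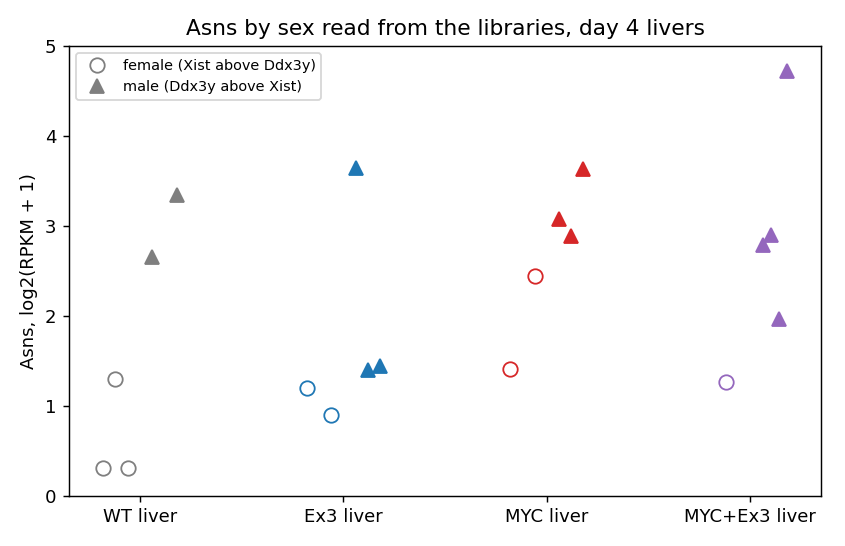
Asns in log2(RPKM + 1) in the 20 day 4 livers by group; filled triangles are males and open circles females, read from Ddx3y and Xist. In each group the males, 12 in all, lie above the females, 8 in all.

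The regulators of the response kept their messenger levels at day 4. Atf4 itself ranged from 87.6 to 119 RPKM in WT livers and from 91.4 to 116 in MYC livers, with means of 107 ± 13.3 and 102 ± 9.55 (SD, n = 5 each). Its log2 difference was -0.07 ± 0.10 in MYC and -0.07 ± 0.10 in MYC+Ex3 livers against WT. Atf4 thus had the smallest standard error of the 9 genes and no call in any of the 6 day 4 tests. Atf5, a factor of the same family made under the same translational control, ranged from 31.8 to 81.3 RPKM in WT and from 40.7 to 70.3 in MYC livers, a log2 difference of -0.10 ± 0.23. Ddit3, which encodes CHOP and promotes cell death in lasting stress, ranged from 10.9 to 20.8 RPKM in WT and from 11.1 to 29.7 in MYC livers, a log2 difference of 0.03 ± 0.24. The 29.7 RPKM belong to MYC liver 5, and the next MYC liver was at 15.5.

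Trib3 has its match to the ATF4 and C/EBP element after the start, and bases 3 to 31 of the transcript side (chr2:152344030-152344058, minus strand, GRCm38.p6, RefSeq) are shown with the reverse of the element in capitals.
Trib3: attagctcaggTTTACATCAgccgggcgg

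Trib3 was at 3.45, 3.61, 5.62, 6.13 and 7.96 RPKM in WT livers and at 3.57, 4.44, 6.86, 9.55 and 9.64 RPKM in MYC livers. The 2 groups overlapped over most of their range, with a log2 difference of 0.27 ± 0.27 (limma adjusted p = 0.525). Among males only it was called, at 0.80 (limma adjusted p = 0.0465). Ex3 livers had the highest single value, 15.7 RPKM.

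Chac1, the enzyme that splits glutathione, moved the other way. Its element lies far upstream and on the opposite strand, as shown in a stretch before the start (chr2:119351022-119351101, plus strand, GRCm38.p6, RefSeq) with the reverse of the element in capitals.
Chac1: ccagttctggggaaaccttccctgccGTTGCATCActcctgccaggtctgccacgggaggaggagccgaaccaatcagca

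Chac1 was at 4.26, 4.43, 7.27, 11.5 and 15.7 RPKM in WT livers and at 0.610, 1.19, 1.32, 1.36 and 2.63 RPKM in MYC+Ex3 livers, the latter on 7 to 21 reads. All 5 MYC+Ex3 livers lay below all 5 WT livers, as for 3.7% of all genes. Chac1 fell by 1.89 on the log2 scale, with an SE of 0.41 (limma adjusted p = 0.002). Both single alleles gave intermediate values. Ex3 livers were at 2.21, 2.77, 4.02, 4.85 and 10.6 RPKM and MYC livers at 1.70, 1.999, 3.92, 5.05 and 11.5 RPKM. Against WT the log2 differences were -0.72 ± 0.41 for Ex3 (limma adjusted p = 0.988) and -0.81 ± 0.41 for MYC (adjusted p = 0.17). Without MYC liver 2, which held the 11.5 RPKM, the latter was -1.14 ± 0.38 (adjusted p = 0.0387). The difference of MYC+Ex3 from Ex3 livers was -1.18 ± 0.41 (limma adjusted p = 0.0473), with overlapping groups where 5.02% of all genes lay apart as lower, a call that ended without any of 10 of the 20 livers (WT 4 or 5, Ex3 1, 3 or 5, MYC 3, MYC+Ex3 1, 2, 3 or 5) and within either keratin class. Among males only the fall of Chac1 in MYC+Ex3 livers against WT was -1.79 ± 0.61 (adjusted p = 0.0767). The interaction for Chac1 was -0.37 ± 0.58.

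**Figure D3:**
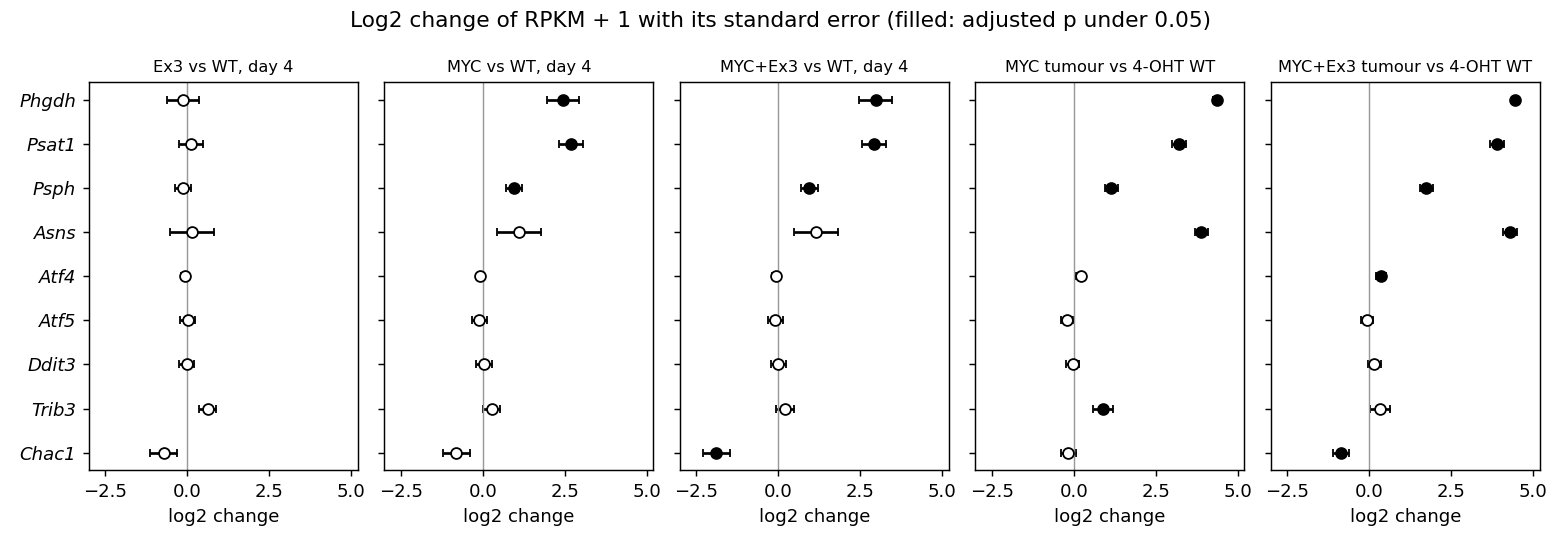
Differences of log2(RPKM + 1) of the 9 genes in 5 comparisons, with standard errors as bars; filled circles passed an adjusted p of 0.05. Phgdh, Psat1 and Psph are filled in the 4 comparisons with MYC, Asns is filled in the 2 tumour comparisons and open at day 4, and Chac1 is filled and below 0 in both comparisons of MYC+Ex3.

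In the tumours the serine enzymes and Asns stood far above the 4-OHT livers. Phgdh lay between 0.094 and 0.342 RPKM, with a median of 0.25, in the 7 4-OHT livers. It was at 21.7, 23.9 and 29.8 RPKM in MYC tumours and at 23.4, 27.8 and 28.4 RPKM in MYC+Ex3 tumours. By level Phgdh ranked between 331 and 478 among all 21671 genes in the 6 tumours and between 12536 and 14175 in the 4-OHT livers. Its log2 change was 4.37 ± 0.11 in MYC tumours (limma adjusted p = 4.84e-12) and 4.45 ± 0.11 in MYC+Ex3 tumours (adjusted p = 3.74e-12). These log2 values understate the change, since the 4-OHT livers lie below the 1 RPKM added before the logarithm. With 0.1 RPKM added they were 6.19 and 6.27 for Phgdh.

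Psat1 lay between 0.448 and 1.58 RPKM in the 4-OHT livers. It was at 9.59, 20.0 and 20.8 RPKM in MYC tumours and at 23.0, 26.7 and 28.9 RPKM in MYC+Ex3 tumours. The log2 changes of Psat1 were 3.22 ± 0.21 (limma adjusted p = 1.78e-07) and 3.89 ± 0.21 (adjusted p = 1.52e-08). Psph lay between 1.60 and 2.83 RPKM in the 4-OHT livers, at 3.13, 7.27 and 7.89 RPKM in MYC tumours and at 7.64, 9.91 and 10.0 RPKM in MYC+Ex3 tumours. Psph changed by 1.15 ± 0.20 (limma adjusted p = 0.000383) and by 1.74 ± 0.20 (adjusted p = 6.48e-06). No tumour overlapped the 4-OHT livers in any of the 3 enzymes, as for 26.3% (MYC) and 38.2% (MYC+Ex3) of all genes with every tumour above, and the first MYC tumour was the lowest of the 6 for both Psat1 and Psph.

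Asns, not called at day 4, joined the serine enzymes here. It lay between 0.203 and 1.65 RPKM in the 4-OHT livers, with a median of 0.327. It was at 17.8, 21.3 and 23.7 RPKM in MYC tumours and at 24.0, 28.9 and 31.005 RPKM in MYC+Ex3 tumours. Its ranks were 285 to 811 in the tumours and 9051 to 13323 in the 4-OHT livers. The log2 change of Asns was 3.89 ± 0.20 (limma adjusted p = 1.99e-08) in MYC tumours and 4.29 ± 0.20 (adjusted p = 3.16e-09) in MYC+Ex3 tumours. A test of the change at day 4 against that in tumours was not made, since the sets differ in Cre driver, controls and scale.

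**Figure D4:**
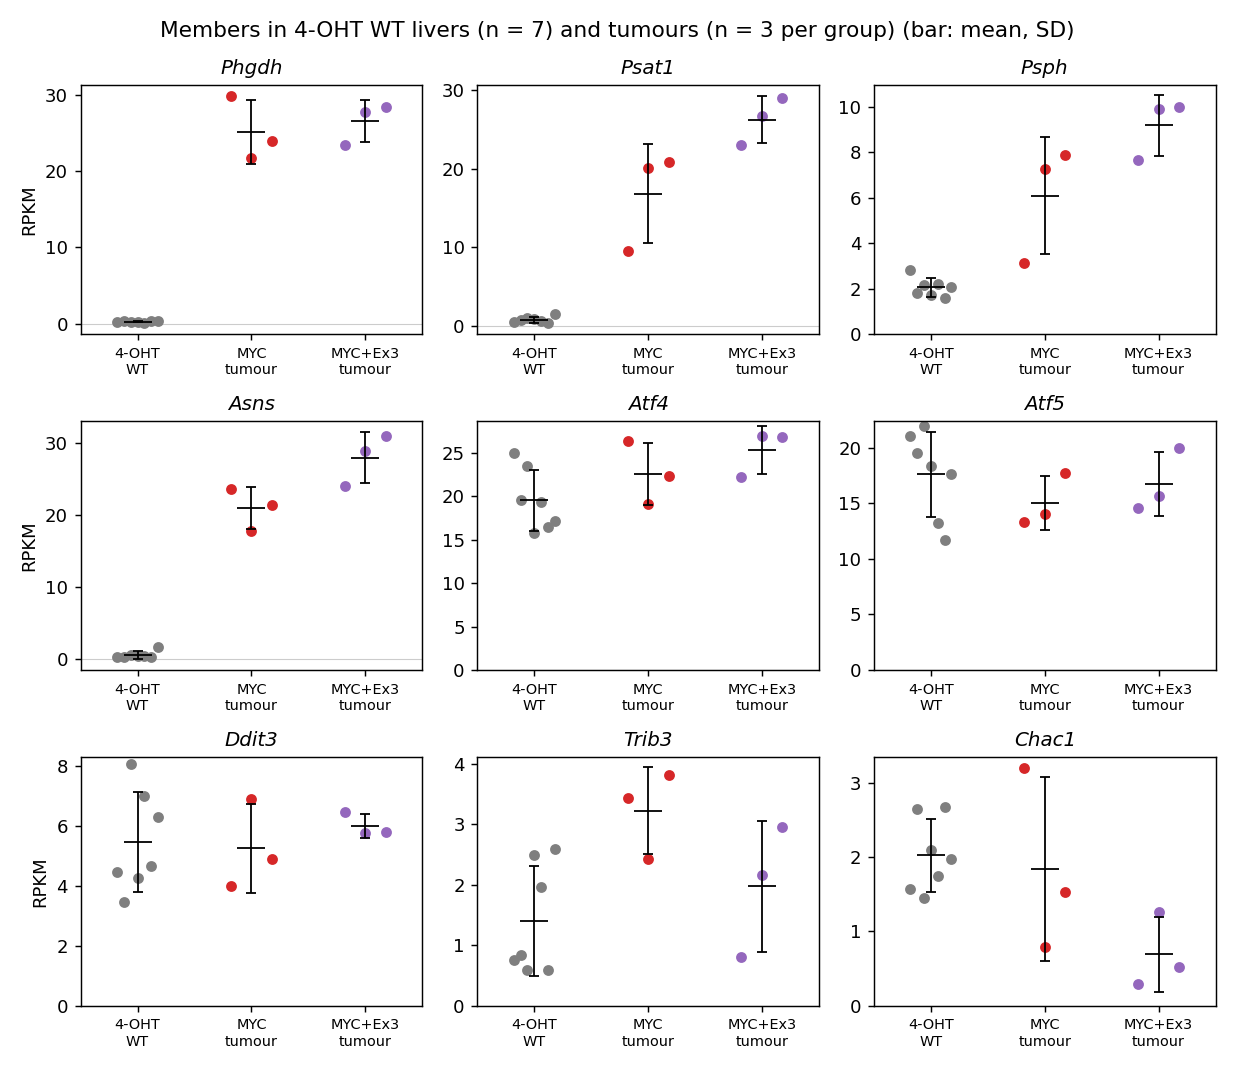
RPKM (linear axes) of the 9 genes in 7 4-OHT WT livers, 3 MYC tumours and 3 MYC+Ex3 tumours; points are libraries, horizontal lines the mean and bars the SD. Phgdh, Psat1, Psph and Asns lie higher in every tumour than in every 4-OHT liver, as do 26.3% (MYC) and 38.2% (MYC+Ex3) of all genes. Atf4, Atf5 and Ddit3 overlap.

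The stress factors moved little in tumours beside those enzymes. Atf4 lay between 15.8 and 25.0 RPKM in the 4-OHT livers, at 19.2, 22.3 and 26.4 RPKM in MYC tumours and at 22.2, 26.9 and 27.0 RPKM in MYC+Ex3 tumours. Its log2 change of 0.37 ± 0.15 in MYC+Ex3 tumours passed the test (limma adjusted p = 0.0468). That call ended after rescaling to the median gene (0.15 ± 0.12, adjusted p = 0.283) and without any of 8 of the 13 libraries (4-OHT 2, 4, 5, 6 or 7, MYC tumour 3, MYC+Ex3 tumour 2 or 3), where adjusted p reached 0.151. It also ended without the filter on low values (limma adjusted p = 0.0634) and with sex in the fit (0.0586). The same held with the S14 4-OHT livers alone (0.206) and among males only (0.423). In MYC tumours Atf4 differed by 0.21 ± 0.15 (adjusted p = 0.274). Atf5 differed by -0.20 ± 0.18 and -0.05 ± 0.18 and Ddit3 by -0.03 ± 0.20 and 0.16 ± 0.20 in MYC and MYC+Ex3 tumours, none of them called. After rescaling Atf5 was lower in MYC tumours, at -0.41 ± 0.16 (limma adjusted p = 0.0438).

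Trib3 lay between 0.586 and 2.58 RPKM in the 4-OHT livers, at 2.42, 3.43 and 3.82 RPKM in MYC tumours and at 0.805, 2.15 and 2.95 RPKM in MYC+Ex3 tumours. Its log2 change of 0.89 ± 0.30 in MYC tumours was called (limma adjusted p = 0.0245), with overlap between the groups. The call ended without MYC tumour 1 (adjusted p = 0.0593) or 3 (0.0953), without the filter on low values (0.0503), after rescaling (0.0643) and with the S15 4-OHT livers alone (0.13). It also ended with sample quality weights (0.83 ± 0.43, limma adjusted p = 0.14) and among males only (adjusted p = 0.0582). Chac1 lay between 1.45 and 2.68 RPKM in the 4-OHT livers, at 0.788, 1.54 and 3.20 RPKM in MYC tumours and at 0.298, 0.516 and 1.26 RPKM in MYC+Ex3 tumours. It fell by 0.86 on the log2 scale in MYC+Ex3 tumours, with an SE of 0.23 (limma adjusted p = 0.00533), and all 3 of these tumours lay below all 7 4-OHT livers, as for 17.8% of all genes. In MYC tumours Chac1 differed by -0.16 ± 0.23 and overlapped them, where 8.89% of all genes lay below. Among males only the change of Chac1 in MYC+Ex3 tumours was -0.65 ± 0.32 (adjusted p = 0.133). Chac1 was thus the member called lower in both MYC+Ex3 groups, at day 4 and in tumours.

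Of the 9 members, 5 were called higher and 0 lower in MYC tumours, where 49.8% of all genes were called, 36.2% as higher and 13.7% as lower. In MYC+Ex3 tumours 5 were called higher and 1 lower, where 60.6% of all genes were called, 42.3% as higher and 18.4% as lower. Phgdh, Psat1 and Asns entered these tests only through the tumours, since fewer than 3 4-OHT livers reached 1 RPKM. Their calls and lack of overlap are thus not free of the filter, and they kept their calls without it. Over all genes the median log2 difference was 0.19 for MYC and 0.23 for MYC+Ex3 tumours, and over the 9 members it was 0.89 and 0.37. The changes of the serine enzymes and Asns were larger than this shift. After rescaling Trib3 differed by 0.73 ± 0.31 in MYC tumours (limma adjusted p = 0.0643). Macrophage markers summed to 174 to 241 RPKM in the 4-OHT livers, 67.5 to 182 in MYC tumours and 91.5 to 119 in MYC+Ex3 tumours, with 10 and 9 of 11 tested markers lower. Endothelial markers summed to 63.6 to 106, 31.2 to 56.2 and 34.0 to 39.2 RPKM, with 8 of 10 lower in either tumour group. Hepatocyte markers summed to 385 to 516, 300.1 to 529 and 323 to 415 RPKM, with 1 and 4 of 12 lower. Stellate cell and fibroblast markers summed to 49.0 to 63.6, 32.1 to 59.5 and 29.4 to 38.0 RPKM, with 3 of 10 higher and 3 lower in MYC tumours and 1 higher and 6 lower in MYC+Ex3 tumours. T and B cell markers were low, at 5.67 to 10.6, 2.35 to 9.53 and 3.11 to 3.90 RPKM in sum, with 0 and 3 of 3 tested lower. Erythroid markers went up in MYC+Ex3 tumours, 4 of 4 higher with a median log2 change of 2.39, against 0 of 4 in MYC tumours, and summed to 13.2 to 30.6, 10.4 to 61.6 and 64.0 to 79.1 RPKM. No marker of these lists was at 0, and the part of cell makeup in the members' changes was not tested.

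Between the 2 tumour genotypes limma called 0 members, where 4.13% of all genes were called, 2.02% as higher and 2.1% as lower. At an unadjusted p under 0.05 there were 3, Psat1 at 0.68 ± 0.25, Psph at 0.59 ± 0.24 and Chac1 at -0.70 ± 0.28 (limma adjusted p = 0.168, 0.205 and 0.194). All 3 MYC+Ex3 tumours lay above all 3 MYC tumours for Psat1 and Asns, as for 8.59% of all genes, and 0 members lay apart as lower, where 7.71% of all genes did. Without MYC tumour 2, Chac1 was called lower in MYC+Ex3 tumours, at -0.99 ± 0.26 (adjusted p = 0.0379).

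The fold changes in the authors' deposited table, made with DESeq2, called the same 3 members in MYC against WT livers and the same 4 in MYC+Ex3 against WT livers. In the authors' deposited table MYC tumours had 4 members below an adjusted p of 0.05, the serine enzymes and Asns, with Trib3 at 0.84 and an adjusted p of 0.124. For MYC+Ex3 tumours the authors' deposited table had 5, those 4 and Chac1, at -1.70 for Chac1 with an adjusted p of 1.6e-05. The calls of Trib3 and Atf4 in tumours were therefore made on RPKM only.

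Serine feeds one-carbon metabolism, and 2 of its mitochondrial folate enzymes rose with MYC as the serine enzymes did. Mthfd2, the mitochondrial dehydrogenase of this pathway, averaged 1.86 ± 1.35 RPKM in WT livers and 7.15 ± 3.78 in MYC livers (SD, n = 5 each), a log2 change of 1.52 ± 0.38 (limma adjusted p = 0.00597). Mthfd1l, the mitochondrial formate producer, changed by 1.51 ± 0.37, and Tyms, thymidylate synthase, by 1.13 ± 0.16. Of 15 tested genes of the list of glycine and folate steps, 3 were called higher and 1 lower in MYC livers, 4 and 0 in MYC+Ex3 livers, 5 and 1 of 14 in MYC tumours and 5 and 2 of 14 in MYC+Ex3 tumours. At day 4, 16.9% of all genes were called higher in MYC and 17.9% in MYC+Ex3 livers, and the count of higher genes in MYC livers was near that share. The tumour counts are not above the share of all genes called, 49.8% and 60.6%. The median of the list in MYC livers was 0.24 against 0.07 over all genes. Shmt2, the mitochondrial enzyme that turns serine into glycine, differed by 0.24 ± 0.19 in MYC livers and by 0.15 ± 0.15 in MYC tumours and was not called. Mthfd2 and Mthfd1l changed by 1.83 ± 0.29 and 1.89 ± 0.28 in MYC tumours and by 2.18 ± 0.29 and 2.56 ± 0.28 in MYC+Ex3 tumours. Within the keratin-free livers Mthfd2 differed by 1.11 ± 0.38 (limma adjusted p = 0.0983), and among males only Mthfd1l differed by 1.58 ± 0.56 (adjusted p = 0.0949), both in MYC against WT.

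Several enzymes that use up serine fell in tumours with both alleles. Sds, serine dehydratase, averaged 29.1 ± 4.62 RPKM in the 7 4-OHT livers, 28.1 ± 1.96 in MYC tumours and 2.63 ± 2.999 in MYC+Ex3 tumours. Its log2 change was -3.37 ± 0.33 in MYC+Ex3 tumours (limma adjusted p = 1.82e-06) and -0.04 ± 0.33 in MYC tumours. The difference of Sds between the tumour genotypes was -3.33 ± 0.39 (limma adjusted p = 0.000215). Agxt, which passes the amino groups of alanine and serine to keto acids, fell in both tumour groups, by 2.33 with an SE of 0.45 in MYC and by 3.15 with an SE of 0.45 in MYC+Ex3 tumours. Of the 12 genes of serine use and breakdown, 2 were higher and 2 lower in MYC tumours, and 1 was higher and 6 lower in MYC+Ex3 tumours. Over all genes 13.7% and 18.4% were called lower there, and 36.2% and 42.3% higher. Ptdss2 was higher in both, by 1.01 ± 0.12 in MYC and 1.06 ± 0.12 in MYC+Ex3 tumours. Sdsl was higher in MYC tumours, by 0.86 ± 0.25, but not called without MYC tumour 3 (limma adjusted p = 0.0893). At day 4 only Cbs, which joins serine to homocysteine, was called, lower by 0.51 with an SE of 0.18 in MYC livers (limma adjusted p = 0.0477) and the call was not stable. It ended in 6 of 12 other settings and without any of 16 of the 20 livers, and without MYC liver 4 the change was -0.29 ± 0.12 (limma adjusted p = 0.115).

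Other genes known to answer to ATF4 moved in both directions, more of them up. Of 27 tested at day 4, 10 were higher and 2 lower in MYC livers, and 10 and 2 in MYC+Ex3 livers. Over all genes 16.9% and 17.9% were called higher and 5.36% and 6.18% lower. The counts of higher genes were above those shares, which was not tested as a set. The list medians were 0.18 and 0.12 against 0.07 and 0.05 over all genes. Those that rose most in MYC livers were Atf3, a stress factor, by 1.73 ± 0.39, Mthfd2, and Aldh18a1, which starts proline synthesis, by 1.499 ± 0.33. Gdf15, a stress hormone, rose by 1.44 ± 0.38 in MYC livers and by 1.78 ± 0.38 in MYC+Ex3 livers, and it fell in the tumours, by 1.90 with an SE of 0.22 in MYC and by 1.74 with an SE of 0.22 in MYC+Ex3 tumours. Among males only Atf3 in MYC livers (1.72, limma adjusted p = 0.102) and Gdf15 in MYC+Ex3 livers (1.26, adjusted p = 0.124) were not called. Nor was Aldh18a1 among males in MYC livers (1.47, limma adjusted p = 0.05005) or in MYC+Ex3 livers (1.35, adjusted p = 0.0538). Within the keratin libraries Aldh18a1 differed by 1.26 ± 0.43 in MYC+Ex3 livers against WT (limma adjusted p = 0.0731). Of 25 tested in tumours, 9 were higher and 4 lower with MYC alone, and 12 and 3 with both alleles, near the 36.2% and 42.3% of all genes called higher there. Slc7a5, the amino acid transporter LAT1, changed by 2.59 ± 0.28 in MYC+Ex3 tumours and by 1.20 ± 0.28 in MYC tumours, and the difference between the genotypes was 1.38 ± 0.33 (limma adjusted p = 0.0315).

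Upstream of ATF4, the list of eIF2α kinases, phosphatases and eIF2B subunits had 6 of 15 genes higher and 0 lower in MYC livers, 6 and 0 in MYC+Ex3 livers, 7 and 1 in MYC tumours and 12 and 1 in MYC+Ex3 tumours, where 16.9%, 17.9%, 36.2% and 42.3% of all genes were called higher. Those that rose in MYC livers were Eif2s1, which encodes eIF2α, the eIF2B subunits Eif2b1, Eif2b2, Eif2b3 and Eif2b4, and Impact, an inhibitor of the kinase GCN2. Within the keratin-free livers Eif2s1 (0.55, limma adjusted p = 0.0557) and Eif2b1 (0.62, adjusted p = 0.0564) were not called. The kinases Eif2ak3 (PERK) and Eif2ak4 (GCN2) differed by 0.11 ± 0.23 and 0.33 ± 0.15 in MYC livers and were not called. Eif2ak4 was called in MYC+Ex3 tumours, at 0.50 ± 0.11 (limma adjusted p = 0.000903), as was the phosphatase subunit Ppp1r15a, at 1.46 ± 0.21. The 18 genes of the XBP1 and ATF6 arms of the unfolded protein response, which answer to endoplasmic reticulum stress apart from ATF4, had 0 higher and 1 lower in MYC livers, 0 and 3 in MYC+Ex3 livers and 0 and 3 in either tumour group. Over all genes 5.36%, 6.18%, 13.7% and 18.4% were called lower in these 4 comparisons. The counts of lower genes in MYC livers and in both tumour groups were near those shares, and that in MYC+Ex3 livers was above its share. The counts of 0 higher genes lay below the 16.9%, 17.9%, 36.2% and 42.3% of all genes called higher. In MYC and MYC+Ex3 tumours the list medians were -0.12 and -0.08 against 0.19 and 0.23 over all genes. None of this was tested as a set. Edem1, which clears misfolded proteins, was lower in all 4, from -0.52 ± 0.11 in MYC tumours to -1.04 ± 0.11 in MYC+Ex3 tumours, and Ern1, the IRE1 sensor, changed by -0.91 ± 0.17 and -1.12 ± 0.17 in the 2 tumour groups. Within the keratin-free livers the change of Edem1 in MYC against WT was -0.39 ± 0.13 (limma adjusted p = 0.0944). Genes of cell division rose in parallel with the serine enzymes, 12 of 12 in each comparison of MYC or MYC+Ex3 with WT, and their part in the members' changes was not tested.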

How the data were processed

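RNA was sequenced from total RNA in 33 libraries. RPKM per gene was deposited by the authors, who per the submitters' processing notes used TopHat2 2.0.8, featureCounts 1.4.5-p1, DESeq2 and the mouse genome mm9. The authors' deposited table also holds log2 fold changes and adjusted p-values. All 20485 genes above 0 gave whole reads (tolerance 0.01) when RPKM steps were compared between libraries; these reads served only to describe depth. RPKM is divided by a library's total, so a few abundant genes can shift all others.

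From RPKM, log2(RPKM + 1) was computed and tested with limma 3.58.1 (R 4.3.3; empirical Bayes with trend, two-sided, Benjamini-Hochberg), separately for the 20 day 4 livers and the 13 tumour-set libraries, on genes with at least 1 RPKM in at least 3 libraries. The fit and the read recovery were tested on simulated data. Groups came from the labels. The members and lists were chosen with earlier results of these data known. Named genes are the 9 members, and from each list up to 3 called genes with the largest log2 change in 4 comparisons; Shmt2, the genes named upstream of ATF4 and each list gene's other comparisons were added after their values were seen. Genes alike Phgdh, Asns and Trib3 had the 3 highest r over group residuals. Promoter windows are from RefSeq (GRCm38.p6), and no gene coordinates of mm9 are given. Alternatives were another pseudocount, no filter or a stricter one, rescaling to the median gene, sex, keratin and quality weights in the fit, subsets, and each library left out.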

Additional observations from a re-analysis of the deposited data

Results flagged for a closer look

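Among the 45 sets of member values in groups of 5 or 7 libraries, 4 had a library far from the others of its group by Dixon's criterion. The criterion marks about 1 set in 20 by chance only where values are normally distributed. Here it was applied to RPKM without a logarithm, and all 4 flagged libraries were the highest of their group. The groups also mix the sexes, between which Asns differed at day 4. For Asns, Ex3 liver 1 stood at 11.47 RPKM with the next liver at 1.72. For Asns again, MYC+Ex3 liver 4 stood at 25.35 RPKM with the next at 6.45. In the 4-OHT group, liver 7 stood at 1.651 RPKM of Asns with the next at 0.537. For Ddit3, MYC liver 5, which held both Xist and Ddx3y reads, stood at 29.67 RPKM with the next at 15.5.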

How the results depend on the processing

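No paired analysis was possible because the labels give each library its own animal number and no number shared between groups. The members called in MYC against WT livers numbered 1 in place of 3 within the keratin-free livers; the cause was not tested. In MYC+Ex3 against WT they numbered 2 in place of 4 among males only, a setting chosen after seeing the data, as were sex and keratin terms together and leaving out MYC liver 5. Leaving out each library in turn gave between 3 and 4 members in MYC against WT and between 0 and 1 in MYC+Ex3 against MYC tumours (1 without MYC tumour 2). For these changes too the cause was not tested. Of 3998 alternative values of single genes, 92 lost a call and 6 gained one. No called value changed direction under any alternative run. Of 2343 alternative values of the members, 192 changed sign, all with no call on either side. Depth limits Phgdh in control livers (4 to 18 reads at day 4) and Asns (2 reads in each of 2 WT livers). Rescaling to the median gene moved the share of called genes that were higher from 75.9% to 59.1% in MYC against WT, from 74.4% to 61.2% in MYC+Ex3 against WT, from 77.7% to 67% against Ex3, and from 72.6% to 53.4% and 69.7% to 55.2% in the MYC and MYC+Ex3 tumours.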
